A study of Mus musculus with 3 samples.

Results

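The genes described here encode the constant parts of antibodies and the chain that joins them. They are the heavy chain genes Ighm, Ighd, Ighg1, Ighg2b and Igha, the light chain genes Igkc, Iglc1, Iglc2 and Iglc3, and Jchain, chosen by name from the deposited count table and making up 10 of its 32886 genes. They were described across the cell clusters of mouse kidney. Their level in B cells was set against that in the other cells of the same library, as a check for free RNA in the droplets. What gives their UMIs (molecules counted by their barcodes) outside B cells was not tested.

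An antibody pairs heavy chains with light chains, and a variable segment at the front of each chain binds the antigen while the constant part fixes the class. A resting B cell makes IgM and IgD together from one long heavy chain transcript, and class switching later replaces these with IgG or IgA. Each mature B cell normally uses either kappa or lambda light chains, kappa being far more common in the mouse, and the J chain links IgM and IgA into polymers in plasma cells.

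Kidneys were cut into the cortex, the outer part of the medulla (OM) and its inner part (IM), CD45-positive immune cells were sorted, and droplet-based single-cell RNA-seq was run for a dataset each from Aachen, Bonn and Hamburg. All mice were untreated wild-type C57BL/6J males of 10 weeks, so compartment was the only contrast, and each dataset gave 1 library per compartment. Dataset served as the replicate, and a dataset also differs in facility and, for Aachen, in the 10x chemistry. The authors' 23 cluster names were used, and clusters were grouped here into classes. The 3 B_cell clusters were the B cells (4358 of 20266 cells), and the 4 clusters T_cell_1 to T_cell_4 were the T cells. Macrophage_1, Macrophage_2, Macrophage_3 and Isg+_Macrophage were the 4 resident macrophage clusters. Malat+_T_cell and Malat+_Macrophage were left out of these classes and counted among the non-B cells.

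The datasets differed in whether these genes were counted at all. In Aachen the count table lists 9 of the 10 genes at 0 in every cell, with only Jchain above 0, and only 1 of 393 immunoglobulin genes had a count there, against 205 in Bonn and 246 in Hamburg. A further 251 genes outside the immunoglobulin loci were also at 0 in Aachen while holding over 1000 UMIs (molecules counted by their barcodes) elsewhere, so a 0 in Aachen says only that the gene is listed at 0, and levels rest on the 6 libraries from Bonn and Hamburg. Library totals ran from 2122809 to 15267126 UMIs, B cells held a median of 2765 UMIs in Bonn and 2452 in Hamburg, and in Hamburg only 0.118% of the values above 0 were whole numbers. Any pair of libraries shared at most 16 cell barcodes. In the B cell clusters the 8 B cell markers, among them Cd79a and Ms4a1, summed to 88.2 to 146 UMIs per 10000 UMIs in all 9 libraries, against 0.402 to 4.04 in T cells.

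The lambda genes lie on chromosome 16 and are close copies of each other, which limits how far counts of Iglc2 and Iglc3 can be told apart. The last 120 coding bases of each are shown, 5′ to 3′ on the minus strand of GRCm38 (mm10) from the GENCODE transcripts, with capitals at bases that differ from Iglc2. They cover chr16:19061755-19061874 for Iglc1, chr16:19198539-19198658 for Iglc2 and chr16:19065368-19065487 for Iglc3.
Iglc1: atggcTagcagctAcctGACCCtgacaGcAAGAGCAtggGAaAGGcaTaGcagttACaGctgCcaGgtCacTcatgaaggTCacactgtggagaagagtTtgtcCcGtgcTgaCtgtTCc
Iglc2: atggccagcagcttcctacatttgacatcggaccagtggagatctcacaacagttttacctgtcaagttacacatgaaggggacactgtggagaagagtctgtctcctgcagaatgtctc
Iglc3: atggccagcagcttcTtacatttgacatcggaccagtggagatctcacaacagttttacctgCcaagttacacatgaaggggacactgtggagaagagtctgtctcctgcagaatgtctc
In this window Iglc3 differed from Iglc2 at 2 bases and Iglc1 at 38. Over the whole coding part Iglc2 and Iglc3 were 96.2% identical, whereas Iglc1 was 73.8% identical to Iglc2. Over the whole transcripts Iglc2 and Iglc3 shared a run of 79 bases, and Iglc1 shared no run longer than 19 with Iglc2. Iglc2 and Iglc3 values are therefore uncertain as a pair, and Iglc1 is the lambda gene that is best separated. Igkc lies on chromosome 6 (70726435 to 70726966, plus strand), Ighm on chromosome 12 (113418558 to 113422730, minus strand) with the other heavy chain genes, and Jchain on chromosome 5 (88519809 to 88527891, minus strand).

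B cells of the kidney carried IgM and IgD transcripts with both light chain types. Ighm, the heavy chain of IgM, stood at 11.4, 12.01 and 11.4 UMIs per 10000 UMIs in B cells of Bonn cortex, OM and IM, and at 11.7, 10.7 and 9.88 in those of Hamburg. The 3 compartments overlapped and so did the datasets. Ighd, the heavy chain of IgD, stood at 4.70, 5.43 and 4.42 in Bonn and 2.57, 2.72 and 3.08 in Hamburg, so each Bonn library was above each Hamburg library, by 1.74-fold in the mean. The Ighd to Ighm ratio on a log2 scale was -1.28, -1.15 and -1.37 in Bonn against -2.19, -1.97 and -1.69 in Hamburg. Within datasets the ratio was 0.19 higher in the medulla, which the exact two-sided permutation test did not separate from the spread (p = 0.333, where 9 arrangements of the labels allow no p under 0.111).

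Among the light chains, Igkc, the only kappa constant gene, stood at 17.3, 18.4 and 16.9 UMIs per 10000 in Bonn and 15.4, 17.0 and 13.9 in Hamburg. Iglc2 was at 18.4, 17.3 and 17.6 in Bonn and 12.7, 14.0 and 11.6 in Hamburg. Iglc3 was at 14.2, 13.0 and 14.0 in Bonn and 6.30, 7.83 and 7.70 in Hamburg, a 1.89-fold gap between datasets that is larger than the range within either. Iglc1 was at 3.48 to 3.68 in Bonn and 2.22 to 3.07 in Hamburg. Each Bonn library was thus above each Hamburg library for Iglc1 and Iglc2 too, by 1.35-fold and 1.39-fold in the mean. The B cell markers Cd79a and Ms4a1 were likewise higher in B cells of each Bonn library (1.29-fold and 1.63-fold in the mean), so the dataset gap is not particular to Ighd and Iglc3. Levels are not per length, so they are not compared between genes.

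**Figure D1:**
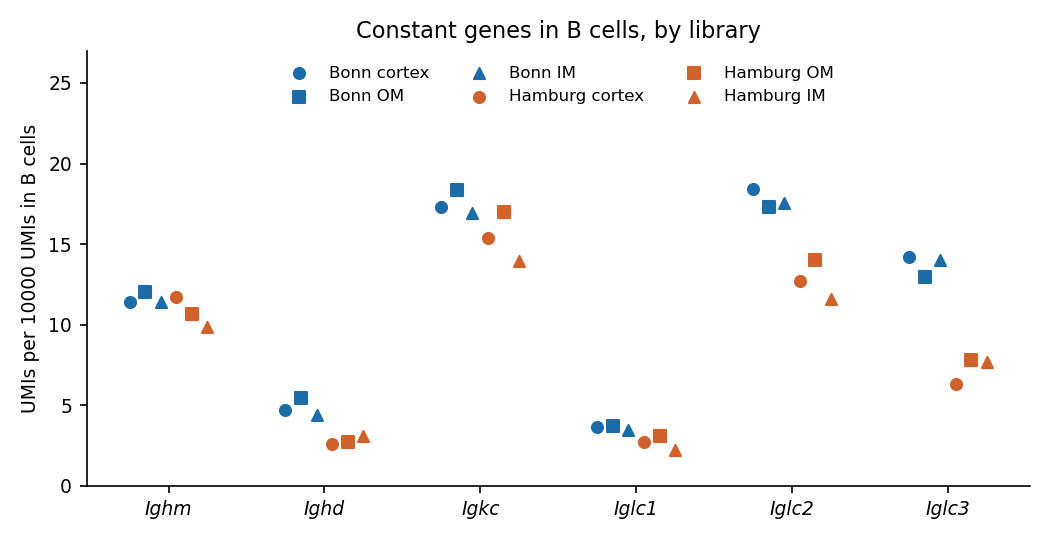
UMIs per 10000 UMIs (linear axis) of 6 constant genes in the B cells of each of the 6 Bonn and Hamburg libraries; each point is 1 library, colour gives the dataset and shape the compartment. Compartments overlap within each gene, whereas Bonn and Hamburg separate for Ighd, Iglc1, Iglc2 and Iglc3 (1.74-fold, 1.35-fold, 1.39-fold and 1.89-fold in the mean).

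The first comparison asked whether B cells of the medulla (OM and IM) differ from those of the cortex in these genes. None did. Summed counts per library were fitted with edgeR's quasi-likelihood test with dataset as a block, 8 of the 10 genes passed the filter on low counts, and 0 passed an adjusted p of 0.05, where 0.0353% of all 8509 genes tested did (3 genes, with 275 at an unadjusted p under 0.05). No member passed by DESeq2 either, and 1 passed by edgeR without the filter on low counts. The log2 fold changes with their standard errors were -0.10 ± 0.11 for Ighm, 0.09 ± 0.13 for Ighd, -0.01 ± 0.10 for Igkc, -0.06 ± 0.13 for Iglc1, -0.06 ± 0.11 for Iglc2 and 0.08 ± 0.12 for Iglc3. Each was smaller than its standard error. In the same fit none of the 16 genes of the B cell receptor complex and its signalling, the 14 B cell identity genes, the 13 plasma cell genes tested of 15 or the 8 B-1 and marginal zone genes tested of 10 was called, and their median log2 fold changes (0.07, -0.02, 0.01 and -0.05) lay near the 0.0005 of all genes. Of the 11 immunoglobulin receptor genes, such as the Fc receptors that bind antibody, 7 were tested in B cells and 0 were called, and the fits of the other cell classes described further on called 0 of the 7 or 8 tested there.

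Igha was the exception in size but not in its test. Its B cell counts were 25, 5 and 25 UMIs in Bonn cortex, OM and IM and 25, 167 and 23 in Hamburg, so that only Hamburg OM stood apart. A single cell held 149 of those 167 UMIs. The fold change was 1.37 ± 0.47 on the log2 scale (edgeR adjusted p = 0.9998) and 0.15 without the 12 immunoglobulin-rich cells described further on. Without the low count filter its adjusted p was 0.000456, and without the Bonn OM library it was 0.00499.

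The switched classes were rare. Ighg1, the heavy chain of IgG1, had 0 UMIs in every cell of every library. Ighg2b had 19 UMIs in B cells and 42 in other cells, the latter all in immunoglobulin-rich cells. For counts of switched cells, the heavy chains Ighg1, Ighg2b and Igha were joined by Ighg2c and Ighg3, which are not among the genes chosen here. B cells with at least 2 UMIs of these switched heavy chains numbered 15 of 3277 (0.458%). By single gene, 6 B cells had at least 2 UMIs of Igha, 4 of Ighg2b, 2 of Ighg2c and 2 of Ighg3. The share of B cells was 0.273, 0 and 0.952% in Bonn cortex, OM and IM and 0.441, 0.385 and 0.605% in Hamburg. Non-B cells met the rule in 0.0779, 0 and 0.0742% in Bonn and 0.201, 0.362 and 0.256% in Hamburg. Each share was below that of the B cells of its library, except in Bonn OM, where both were 0. The shares rest on 0 to 5 B cells and 0 to 7 non-B cells per library, and the latter include immunoglobulin-rich cells described further on. The medulla minus cortex difference of 0.129 percentage points had an exact permutation p of 0.889.

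Light chain use could not be read from the constant genes alone. Lambda genes gave 64.9 to 67.7% of light chain constant UMIs in Bonn and 58.5 to 60.6% in Hamburg, and medulla and cortex differed by -0.03 percentage points (exact permutation p = 1.0). Most B cells, 2727 of 3277 (83.2%), held UMIs of both types. A cell was called where one type had at least 2 UMIs and at least 4 times those of the other, and of the 1008 called cells (30.8%) 852 were lambda. The lambda share among called cells was 95.9% in Bonn cortex, 42 of 42 cells in Bonn OM and 97.1% in Bonn IM, against 66.2, 72.7 and 70.4% in Hamburg, so here too the datasets separated. Values were rounded in each cell for these calls, which alters Hamburg but not Bonn, and the part of this in the gap was not tested. Both medulla libraries were above the cortex in each dataset, by 4.02 points in the mean, and the exact permutation p of 0.111 is the smallest that the design allows, so it can show neither a difference nor its absence.

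The variable segments gave a different picture, in a description chosen after the values were seen. With at least 4 UMIs and a 4-fold excess as the rule, 2848 B cells held kappa variable segments (Igkv) and 121 held lambda ones (Iglv), which is 4.08% lambda and between 3.16% (exact binomial 95% interval 1.04 to 7.23, counting error only) and 5.75% (3.79 to 8.31) in the single libraries. Constant and variable counts were far from even. In B cells there were 6.9 Igkv UMIs for each Igkc UMI, yet 3.34 lambda constant UMIs for each Iglv UMI. Which end of the transcript the libraries read is not given in the sources used here, and it bears on what these ratios measure.

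Igkc followed the variable segment. It was lower in Iglv cells than in Igkv cells of every library, by 2.48 ± 0.66 on the log2 scale (SD, n = 6 libraries), with levels of 2.01 to 6.13 UMIs per 10000 against 14.8 to 19.4 and no overlap. Iglc2 did not: the log2 difference was -0.13 ± 0.40, and 86.9% of Igkv cells held an Iglc2 UMI against 88.4% of Iglv cells. Iglc3 was detected in more Igkv cells (84.7%) than Iglv cells (62.0%). Iglc1 was detected in 57.9% of Iglv and 36.5% of Igkv cells, with a log2 difference of 0.45 ± 1.08 that was positive in 5 of 6 libraries. By the constant genes, 697 of the 2848 Igkv cells (24.5%) would have been called lambda. T cells of the same libraries, which should lack these transcripts, held Iglc2 at 0.435 to 2.63% of the B cell level.

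Ighm was close to even between the groups (0.21 ± 0.40 on the log2 scale), while Ighd was lower in Iglv cells of all 6 libraries, by 0.68 ± 0.30. Its levels were 1.88 to 3.29 UMIs per 10000 in Iglv cells and 2.61 to 5.56 in Igkv cells, which overlap only between datasets. The Iglv groups held 5 to 38 cells per library, so these levels rest on few cells.

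**Figure D2:**
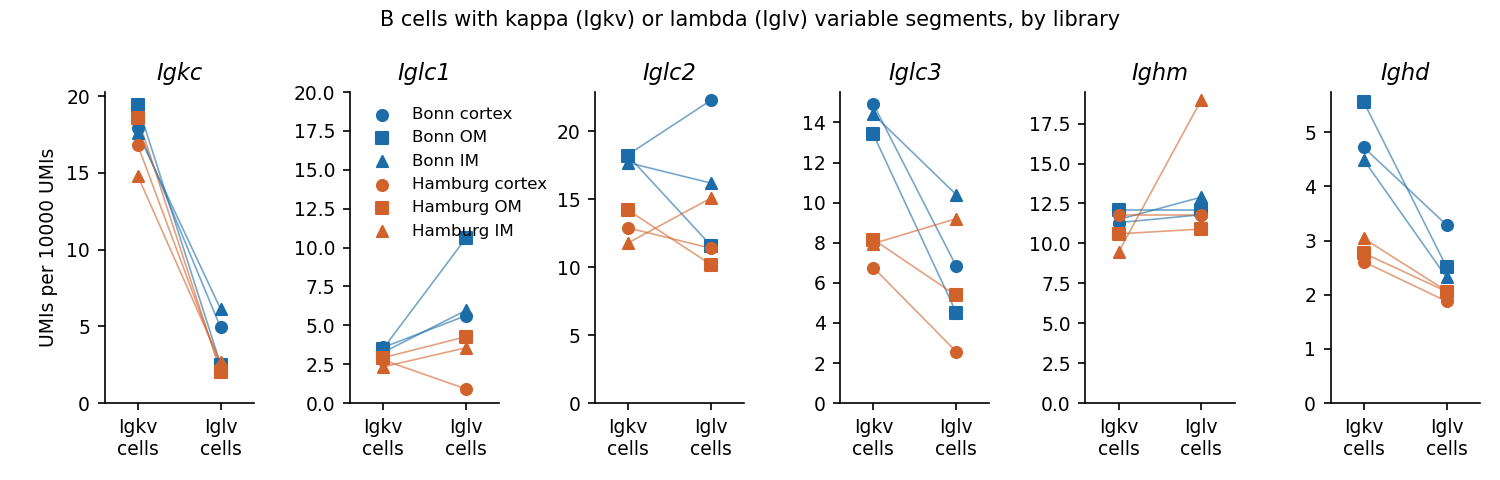
UMIs per 10000 UMIs (linear axes, 1 panel per gene with its own scale) in B cells with kappa (Igkv) or lambda (Iglv) variable segments; lines join the values of 1 library. Igkc falls from 14.8 to 19.4 in Igkv cells to 2.01 to 6.13 in Iglv cells, Iglc2 lines run in both directions, and Ighd is lower in Iglv cells of all 6 libraries.

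Outside the B cells Ighm was found at a higher share of its B cell level than Ighd and the light chain genes. T cells held Ighm at 13.2 to 21.4% of the B cell level of their own library (median 15.4%), and resident macrophages at 19.99 to 27.6% (median 22.1%). Igkc was at a median of 2.13% in T cells and 0.561% in resident macrophages, Iglc2 at 1.28 and 0.572%, and Ighd at 2.36 and 1.83%. For Cd79a, the B cell receptor subunit used here as a second B cell transcript, non-B cells together had 0.842 to 2.99%. Among Ighm, Ighd, the 4 light chain genes and Cd79a, Ighm had the highest share in T cells and in resident macrophages of each of the 6 libraries. Igha and Jchain, low in B cells themselves, reached higher shares in some Hamburg libraries, up to 40.5% for Igha in resident macrophages of Hamburg cortex and 34.5% for Jchain in those of Hamburg OM. These shares rest on few molecules, with 16 Igha and 25 Jchain UMIs in all resident macrophages of Bonn and Hamburg. All non-B cells summed held Igkc at 1.28 to 184% of the B cell level, and at 1.28 to 3.70% once the 12 immunoglobulin-rich cells were left out.

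The ratios between the genes differed by cell class for Ighm. Ighm to Igkc was 0.629 to 0.762 in B cells, 4.1 to 14.7 in T cells and 3.19 to 54.2 in resident macrophages. Igkc to Cd79a, in contrast, was 0.356 to 0.459 in B cells, 0.368 to 1.91 in T cells and 0.353 to 0.862 in resident macrophages. When non-B cells with 2 or more B cell marker UMIs were left out, Ighm in non-B cells stayed at 14.8 to 20.5% of the B cell level whereas Igkc came to 0.0571 to 0.744% and Iglc2 to 0 to 0.387%. What gives Ighm UMIs outside B cells was not tested.

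**Figure D3:**
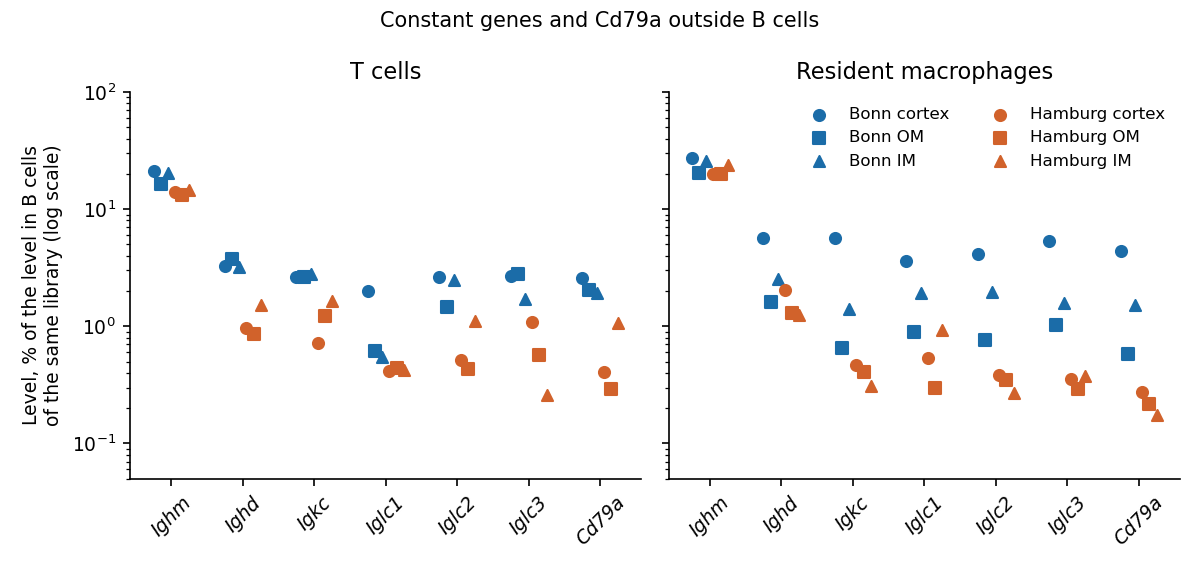
Level of 6 constant genes and Cd79a in T cells (left) and resident macrophages (right) as a percentage of the level in B cells of the same library, on a log axis; each point is 1 of the 6 libraries. Ighm lies between 13.2 and 27.6% in both classes, and the other genes reach at most 5.7%.

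At matched depth, too, more non-B cells held an Ighm UMI than an Igkc UMI. With each cell thinned to 500 UMIs, an Ighm UMI was found in 41.3% of B cells of Bonn and 39.2% of Hamburg, in 9.35 and 6.79% of T cells, in 13.9 and 12.01% of resident macrophages, and in 11.7 and 9.52% of ILC2 (innate lymphoid cells). An Igkc UMI was found in 52.0 and 41.7% of B cells, 1.18 and 0.765% of T cells and 2.08 and 0.821% of resident macrophages. In Bonn, 0 of 77 ILC2 held an Igkc UMI, a count that allows a share of up to 4.68% (exact binomial), while 51 of the 77 held an Ighm UMI before thinning. In Hamburg, 7 of 168 ILC2 held an Igkc UMI and 82 an Ighm UMI before thinning. Unthinned, Ighm was seen in 91.6 and 81.6% of B cells and 68.1 and 50.3% of resident macrophages, at median depths of 2765 and 2452 UMIs in B cells and 4499 and 3298 in resident macrophages.

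Across the 23 clusters Ighm was highest in the cluster named Undefined (41.7 UMIs per 10000, 1 library with at least 20 such cells), where 2 cells held 947 and 99 of the 1047 Ighm UMIs and 3 of 43 Bonn cells held any. It came next in the B cell clusters B_cell_2 (20.3 ± 5.2, SD, n = 5 libraries), B_cell_3 (16.7 ± 1.1, n = 3) and B_cell_1 (10.0 ± 1.1, n = 6). The gap from B_cell_3 to B_cell_2 lies within the spread of B_cell_2. The next were Malat+_Macrophage at 5.55 ± 7.81 (n = 6), where 1 library at 21.4 set the mean against a median of 2.59, and pDC at 4.88 (1 library). Macrophage_2, NK_cell_2, Macrophage_3 and ILC2 followed at 2.91, 2.80, 2.78 and 2.60, which their spreads do not separate. In all, 48.3% of Ighm UMIs of Bonn and Hamburg lay in B cells, against 88.8% for Ighd, 88.1% for Iglc1, 89.6% for Iglc2, 85.7% for Iglc3 and 38.8% for Igkc.

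The cluster labelled pDC (plasmacytoid dendritic cells, which make type I interferon) held Iglc3 near the level of B cells, which ran from 6.30 to 14.2 UMIs per 10000. Iglc3 stood at 9.29 UMIs per 10000 in the 48 cells of Bonn (exact Poisson 95% interval 8.35 to 10.3) and 8.17 in the 42 of Hamburg (7.20 to 9.24), and it was found in 43 of 48 and 34 of 42 cells. Iglc2, its near copy, was lower at 1.26 and 2.03 and was found in 9 cells of each dataset. Igkc was found in 12 and 10 of these cells, Cd79a in 2 and 3, and Jchain in 0. Ighm was at 4.75 and 7.36, in 46 of 48 and 41 of 42 cells. In both datasets Iglc3 and Ighm were found in most cells of the cluster and the other members in a minority. Clusters were made from these cells' own genes, so the values are a description.

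Among the B cell clusters, likewise as a description, B_cell_2 held more Iglc1 (10.7 UMIs per 10000 in Bonn and 11.9 in Hamburg) than B_cell_1 (2.80 and 1.78), more Ighm (17.2 and 22.1 against 10.7 and 9.09) and less Ighd (2.69 and 1.41 against 4.90 and 2.83). Vpreb3, best known from B cell precursors, was at 7.82 and 6.84 in B_cell_2 and 2.52 and 1.94 in B_cell_1. B_cell_3 differed between datasets: its 225 Hamburg cells, with a median of 750 UMIs, held Igkc at 5.14 and Iglc2 at 1.89, whereas the 21 Bonn cells held 23.2 and 12.2.

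In resident macrophages, the tissue macrophages of the kidney, the medulla held less light chain RNA than the cortex in the fit over all libraries, and the call was lost without a single library. Of the 10 genes 4 passed the filter (Ighd, Iglc1, Igha, Jchain and both IgG genes did not), and 3 of them were called lower in the medulla, where 1.2% of 8228 genes tested were called in either direction (52 up and 47 down). Igkc fell by 1.99 on the log2 scale (SE 0.32, edgeR adjusted p = 0.0167), Iglc2 by 1.45 (SE 0.31, adjusted p = 0.0379) and Iglc3 by 1.83 (SE 0.32, adjusted p = 0.0175), while Ighm was at -0.14 ± 0.14 (adjusted p = 0.84).

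Only 1 library was high. Igkc in resident macrophages was 0.987, 0.121 and 0.238 UMIs per 10000 in Bonn cortex, OM and IM, and 0.0713, 0.0694 and 0.0434 in Hamburg. Bonn cortex stood alone, and Hamburg cortex lay among the medulla libraries, so the compartments overlap. Without the Bonn cortex library Igkc was at -0.37 (adjusted p = 0.958), Iglc2 at -0.31 (0.976) and Iglc3 at 0.33 (0.984). Without the Bonn OM library Igkc was at -1.18 (adjusted p = 0.237), and without the Bonn IM library at -1.98 (0.107). Iglc2 and Iglc3 were not called without Bonn OM (-0.64 and -1.14) or Bonn IM (-1.78 and -1.37). Iglc2 missed the threshold at a similar fold without Hamburg cortex (-1.64, adjusted p = 0.0582) or Hamburg IM (-1.41, adjusted p = 0.107). Without the whole Hamburg dataset the folds were larger, and Igkc was called (-2.50, adjusted p = 0.033) while Iglc2 (-1.79, 0.106) and Iglc3 (-2.10, 0.0585) missed the threshold. DESeq2 gave Igkc, Iglc2 and Iglc3 no adjusted p.

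In Bonn, markers of B cells and of some other blood cells were also highest in resident macrophages of the cortex. The 8 B cell markers together, none of them at 0 over the libraries, were at 7.57, 1.70 and 2.56 UMIs per 10000 in resident macrophages of Bonn cortex, OM and IM, 1.14, 0.945 and 0.652 in Hamburg and 1.36 to 1.64 in Aachen. In Bonn cortex 124 of 539 resident macrophages held 2 or more B cell marker UMIs, or 23.01%, against 11.2 to 12.5% in the other Bonn libraries, 2.32 to 7.33% in Hamburg and 1.28 to 1.68% in Aachen. In the same macrophages of Bonn cortex, OM and IM the 8 T cell markers summed to 2.76, 1.20 and 0.732 UMIs per 10000, the 4 NK cell markers to 1.13, 0.198 and 0.20 and the 3 monocyte markers to 6.04, 2.48 and 1.36. Bonn cortex was thus the highest Bonn library for each of these lists, but not for the 3 neutrophil markers (0.275, 0.395 and 0.214). In Hamburg cortex, OM and IM the NK cell markers were at 0.256, 0.113 and 0.00625, highest in cortex. The T cell markers (0.482, 0.578 and 0.486) and monocyte markers (2.57, 1.76 and 2.74) were not highest in cortex there. The part of these lists in the result was not tested. Cd79b, a B cell receptor subunit, was called lower in the medulla in the same fit (log2 fold change -0.79, SE 0.16, edgeR adjusted p = 0.0229). With these cells left out Igkc, Iglc2 and Iglc3 were too low to enter the fit and Ighm was at 0.00 ± 0.14.

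**Figure D4:**
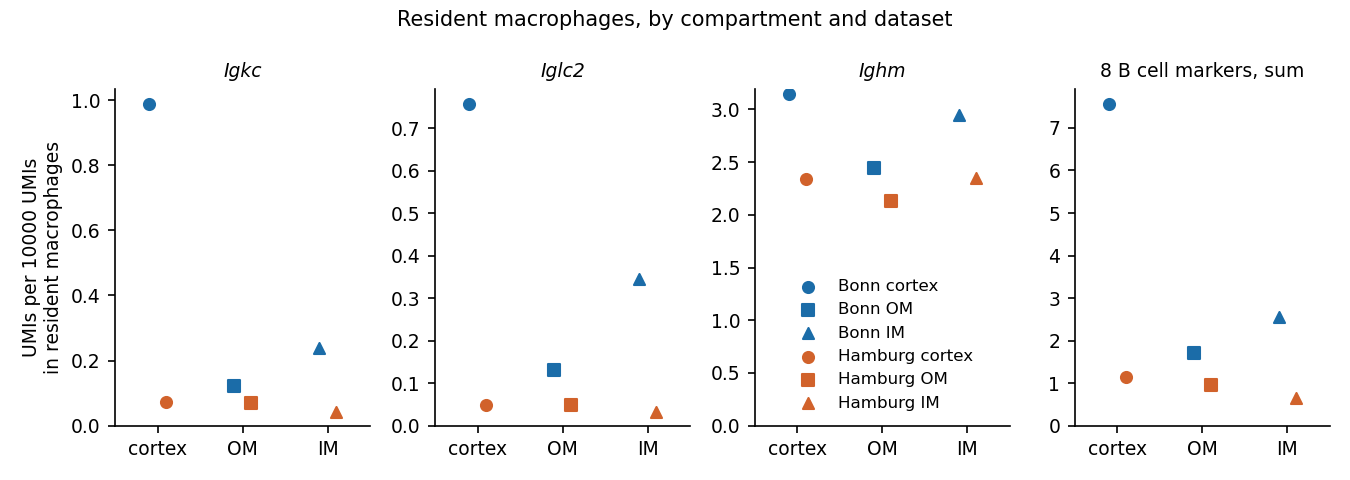
UMIs per 10000 UMIs in resident macrophages by compartment (linear axes from 0, 1 panel per gene and 1 for the sum of 8 B cell markers); each point is 1 library. Bonn cortex stands apart for Igkc (0.987), Iglc2 (0.756) and the B cell markers (7.57), whereas the Ighm values all lie between 2.14 and 3.14.

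T cells showed no such call. Of the 10 genes 5 passed the filter (Iglc1, Igha, Jchain and both IgG genes did not) and 0 were called, where 0.0117% of 8522 genes tested by edgeR were (1 gene, with 503 at an unadjusted p under 0.05), and DESeq2 called 0 members too. Ighm in T cells was 2.44, 1.96 and 2.34 UMIs per 10000 in Bonn cortex, OM and IM and 1.63, 1.41 and 1.43 in Hamburg, so that cortex was above both medulla libraries within each dataset, although the ranges overlap between datasets. The log2 fold change was -0.16 ± 0.11 (edgeR adjusted p = 0.967). Igkc was at 0.44 ± 0.22 (adjusted p = 0.90), Iglc3 at -0.55 ± 0.28 (adjusted p = 0.90), Ighd at 0.22 ± 0.39 and Iglc2 at -0.21 ± 0.26 (adjusted p = 0.999 for both). The difference between the medulla effect in resident macrophages and that in B cells was fitted in 1 model, in which 4 of the 8 members tested were called beside 1.04% of 9709 genes. Ighm was not among them (log2 difference -0.02 ± 0.17).

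A few cells held most of the Igha and Jchain, and in Hamburg most of the Igkc. At 10% or more of a cell's UMIs from the 10 genes, 12 of 20266 cells were rich (0.0592%, exact binomial interval 0.0306 to 0.103), 15 at 5% and 4 at 20%. The 12 held 97.3% of all Igha UMIs of Bonn and Hamburg, 95.1% of Jchain, 68.9% of Ighg2b and 57.8% of Igkc, but only 5.73% of Ighm and 1.97% of Iglc2. For Igkc the share was 24.7% in Bonn and 76.7% in Hamburg, where 1 cell of Hamburg IM alone held 14582 Igkc UMIs. The cells were chosen by these same UMIs, so the shares are a description. Of the 12 cells 9 sat among the 69 cells named Undefined, 1 in Malat+_Macrophage and 2 in B cell clusters, so the cluster names place most of them outside the B cells.

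Genes of plasma cells were found in these cells, to differing extents. Mzb1, a chaperone of antibody secretion, was at 0 to 110 UMIs in them, Xbp1, a driver of the secretory programme, at 4 to 77, and Txndc5 at 4 to 78, while Ms4a1, the B cell surface protein CD20, was at 0 in each. Other plasma cell genes were patchier, with Prdm1 at 0 in 5 of the 12 cells and Irf4 at 0 in 3, and the Hamburg OM cell of B_cell_1 had 0 UMIs of Mzb1, Sdc1, Derl3 and Tnfrsf17. The 9 rich cells of the clusters Undefined and B_cell_1 that came from Bonn cortex or Hamburg held 149 to 1427 Igha UMIs and 0 of Ighm. The rich cells of Bonn IM held the reverse, with 947 and 254 Ighm UMIs and 0 of Igha. No rich cell held both Ighm and Igha UMIs. The Malat+_Macrophage cell also held 49 UMIs of the macrophage gene C1qa among its 33045 UMIs, and the highest was a Hamburg IM cell with 14582 Igkc of 41216 UMIs.

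**Figure D5:**
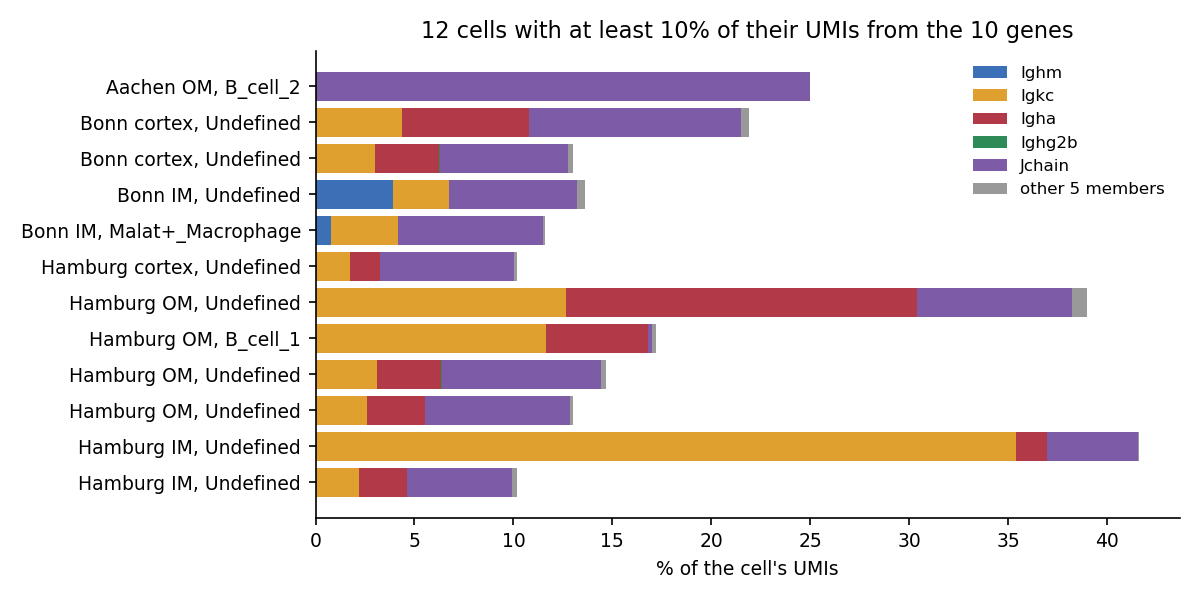
Share of each cell's UMIs (% on a linear axis) from the 10 genes, stacked by gene, for the 12 cells at 10% or more, each named by library and cluster. Igha appears in the Bonn cortex and Hamburg cells, Ighm only in the 2 Bonn IM cells, and the Aachen cell shows Jchain alone because the other members are listed at 0 there.

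In each of these cells of Bonn and Hamburg 1 kappa variable gene led, with 7143 of 7145 Igkv UMIs in a Bonn cortex cell as an example. In Bonn IM both rich cells and a further cell at 7.98% held Igkv6-23 with Ighv8-12, at 8542, 13511 and 5062 Igkv6-23 UMIs. A Bonn cortex cell and a Hamburg cortex cell, from different datasets, both held Igkv6-15 with Ighv1-22 (11504 and 11403 Igkv6-15 UMIs). The other rich cells of Bonn and Hamburg each had a leading pair of their own, although Igkv5-48 led in a cell of Hamburg OM and in one of Hamburg IM.

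Jchain in B cells was uneven. Its counts were 0, 719 and 1 UMIs in Aachen cortex, OM and IM, 1, 0 and 8 in Bonn and 179, 38 and 29 in Hamburg. In Aachen OM 3 cells held all 719 UMIs (427, 258 and 34), and in Hamburg cortex 2 cells held 85 and 68. In Hamburg 5.01 to 5.65% of B cells held a Jchain UMI, above the 1.80 to 3.67% of non-B cells of the same libraries, whereas Bonn had 0 to 0.762% of B cells and 0 to 0.445% of non-B cells. The medulla minus cortex log2 fold change in B cells was -0.47 ± 1.15 (edgeR adjusted p = 0.9998), and it has no stable direction. It was 6.24 without the Hamburg cortex library, 1.75 without Hamburg OM, -2.93 without Aachen cortex and -2.18 without Aachen OM, and DESeq2 gave 2.11.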

How the data were processed

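Single-cell RNA-seq counts of 20266 CD45-positive kidney cells in 9 libraries were used as deposited with the authors' cluster names. Per the labels, reads were processed with Cell Ranger and Seurat on mm10, and cells had passed the authors' limits of 200 to 4000 genes and under 20% mitochondrial reads. The values are those of the raw table the authors deposited, read as estimated counts of UMIs because Hamburg values are mostly not whole. For the fits they were rounded after summing. For calls of single cells, shares of cells with a UMI, B cell marker UMIs, light and heavy chain ratios in the permutation tests and thinning, they were rounded in each cell. Rounding in each cell alters Hamburg values but not those of Bonn, which are all whole, and its effect was not tested. No doublet caller was run. The members and gene lists were chosen with earlier results of these data known. Members that passed the filter on low counts are named in each medulla comparison, as are list genes at an adjusted p under 0.05, at most 4 a list and direction, and some results are not reported here.

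Counts were summed per library and cell class and tested in R 4.3.3 with edgeR 4.0.16 (TMM, filterByExpr, quasi-likelihood test, Benjamini-Hochberg), comparing OM and IM with cortex with dataset as block, since the 3 libraries of a dataset came from 1 facility. DESeq2 1.42.0 was an alternative. Ratios and shares were tested by exact permutation within datasets. The 9 libraries entered the fits although Aachen lists 9 members at 0. On simulated counts, 72.2, 86.2 and 84.2% of 2-fold changes were recovered for B cells, resident macrophages and T cells (8237, 8010 and 8309 genes), with 5, 9 and 4 false calls. The changed genes were drawn from all genes above a low mean count. These rates may not hold for the members, 9 of which are at 0 in Aachen. Whether a library came from 1 mouse or several is not given in the sources used here. The p-values therefore measure how the compartment difference varies between datasets, and that variation may be technical.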

Additional observations from a re-analysis of the deposited data

Results flagged for a closer look

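The medulla effect differed between resident macrophages and B cells for 4 genes, by the interaction term of 1 edgeR fit over both classes. The difference was -1.93 (SE 0.29, adjusted p = 1.29e-05) for Igkc, -1.32 (SE 0.28, adjusted p = 0.00452) for Iglc2 and -1.74 (SE 0.29, adjusted p = 0.000117) for Iglc3, on the log2 scale. Without the Bonn cortex library these came to -0.36, -0.31 and 0.04 with adjusted p of 1, and without macrophages holding 2 or more B cell marker UMIs to -0.16, -0.13 and 0.26 with SEs of 0.61, 0.66 and 0.997, where few macrophage counts of these genes were left, so that setting shows little. The Bonn cortex library also had the most B cell marker UMIs in its resident macrophages. Without the Bonn OM library Igkc was at -1.21 (adjusted p = 0.185), Iglc2 at -0.66 and Iglc3 at -1.23, and without Bonn IM Iglc2 was at -1.61 and Iglc3 at -1.35, none of them called. Ighd missed the threshold (-1.17, adjusted p = 0.0622) and passed it without Aachen (-1.19, adjusted p = 0.0331). Iglc1 (-1.23, adjusted p = 0.347) and Igha (-2.27, adjusted p = 0.375) were not called.

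For Jchain the difference was 3.42 (SE 0.77, adjusted p = 0.00863). Resident macrophages of Hamburg cortex, OM and IM held Jchain at 0.0469, 0.106 and 0.0647 UMIs per 10000, against 1.55, 0.306 and 0.205 in B cells of the same libraries. In B cells of Hamburg cortex 2 cells held 85 and 68 of the 179 Jchain UMIs. Without the Hamburg cortex library the difference was -1.98 and without the Hamburg OM library -1.53, with adjusted p of 1 in both.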

How the results depend on the processing

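The members called in the medulla comparison moved with the settings as follows, and the cause was not tested. In B cells 1 member (Igha) was called without the low count filter. In resident macrophages 0 were called without the dataset block, with cells thinned to 500 UMIs and without cells holding B cell marker UMIs, where at most Ighm was left to test in the last 2. DESeq2 gave the 3 genes called by edgeR no adjusted p, so it gives no count. Leaving out a dataset or a library, the libraries being alternatives added after the data were seen, gave 0 to 1 called members in B cells, 0 to 3 in resident macrophages and 1 to 5 for the difference between them, which was 1 without the cells holding B cell markers. Iglc3 ran from -2.10 to 0.33 in resident macrophages and from -1.96 to 0.038 for the difference (0.26 without the cells holding B cell markers), and Jchain from -1.98 to 7.56 for the difference.

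Without the pairing of libraries by dataset (no block), 0 genes were called in any of the 3 classes. Over all genes, B cells had 0 calls by DESeq2, 84 without the filter, 1 with thinned cells and 5 to 43 with a dataset or library left out. Resident macrophages had 29, 382, 25 and 6 to 262 in the same order. T cells had 107 without the filter, 4 without cells holding B cell markers and 0 to 45 with a dataset or library left out. The difference had 51 without the cells holding B cell markers and 14 to 160 with a dataset or library left out.

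Among the permutation results, where 2 datasets cannot reach the threshold, these changed sign. The lambda share of UMIs differed by 0.954 points without rich cells, 0.235 as a mean over cells, and -1.53 to 1.47 with a dataset left out. The share of called lambda cells differed by -2.15 points with thinned cells, and that of switched cells by -0.13 at 1 UMI. For the non-B level as a percentage of the B cell level, Igkc differed by -0.617 and Iglc1 by -0.21 without rich non-B cells (added after the data were seen) and Iglc2 by 0.0143 without cells holding B cell markers. With a dataset left out Igkc ran from -1.93 to 99.3, Iglc1 from -0.212 to 2.33 and Iglc2 from -1.36 to 0.991. No such test was run for Jchain, which is at 0 in B cells of some libraries.

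The median level in non-B cells as a percentage of B cells was 31.6 for Ighm, 3.79 for Ighd, 3.47 for Iglc2 and 4.93 for Iglc3 per cell in place of per 10000 UMIs. It was 0.437 for Ighd, 0.184 for Iglc1, 0.187 for Iglc2 and 0.176 for Iglc3 without cells holding B cell markers, and 1.30 for Iglc2 without rich cells. At 20% of UMIs 4 cells were rich. Depth limits the rare classes: Ighg1 at 0 UMIs does not show absence, and 6 libraries of 2 datasets leave the spread between facilities and mice joined.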

Other observations

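The patterns of the members over clusters followed different genes. Over 105 sums of a cluster in a library, which share depth and library, and among 9105 genes outside the immunoglobulins, the genes most like Ighd included Fcer2a, the low-affinity IgE receptor of B cells (Pearson r = 0.941), and Fcmr, the IgM receptor (0.927). Iglc2 was most like Cd79a (0.947), Ly6d (0.945) and Ebf1 (0.926), and Igkc like Mzb1 (0.907), Gm30211 (0.900) and Cd79a (0.898). Ighm had lower values, with Mzb1 at 0.821, Ly6d at 0.804 and Cd79b at 0.799. Jchain was lowest, with Eaf2 at 0.725, Trp53inp2 at 0.674 and Pi4k2b at 0.653.

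Outside the antibody genes, the medulla fits called few list genes. Kap and Fxyd2, genes of kidney tubule cells, were higher in resident macrophages of the medulla (log2 fold changes 3.01 and 3.88, edgeR adjusted p = 0.0175 and 0.00992), and Kap was higher in B cells (3.77, adjusted p = 0.0192). Bhlhe41, a transcription factor of B-1 cells that other cells also use, was higher in resident macrophages (3.25, adjusted p = 0.0307).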
